A study of Mus musculus with 2 samples.

Results

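The telomere and telomerase genes followed here are 10 genes, Tert, Terf1, Terf2, Terf2ip, Pot1a, Pot1b, Tinf2, Acd, Rtel1 and Dkc1, chosen by name as parts of shelterin and of the telomerase machinery. All 10 were found, as 16 of the 28430 RefSeq transcripts listed and 10 of 22421 genes. RNA came from CGR8, a mouse embryonic stem cell line kept without feeder cells on gelatin, in serum with leukaemia inhibitory factor, and both groups share this line and medium. The control siRNA group is 1 library from cells given a negative siRNA, and the Set1a siRNA group is 1 library from cells given an siRNA against Set1a, with 2 transfections within 72 hours in each. The comparison asks how lowering SET1A, a methyltransferase of histone H3 lysine 4 encoded by Setd1a, affects expression. With 1 library per group no test is possible, so every difference below is between 2 libraries and has no replicate check.

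Mammalian telomeres are arrays of the hexamer TTAGGG that end in a single-stranded overhang. Shelterin coats them: TERF1 and TERF2 bind the double-stranded repeat, and POT1 proteins bind the overhang. TINF2 and ACD join these parts, while TERF2IP is held at telomeres by TERF2. Telomerase, in which TERT copies a template within the RNA Terc, adds repeats, and dyskerin, encoded by Dkc1, stabilises that RNA. Embryonic stem cells carry active telomerase. They also pass now and then through a state marked by Zscan4, a family of near-identical genes known for lengthening telomeres by recombination.

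Recovered depth came to 6655821 reads with control siRNA and 6421185 with Set1a siRNA. Where a sentence gives a pair of levels or read numbers, the control siRNA library stands first. Setd1a, the targeted gene, was at 14.2 RPKM (reads scaled to transcript length and library depth) with control siRNA and 11.97 with Set1a siRNA. Its ratio of 0.846 carried a 95% counting interval of 0.746 to 0.959. Of all genes whose mean reached 1 RPKM, 10.6% had an interval below 1, and of the 7918 whose mean reached 5 RPKM, 13.01% had a lower log2 fold than Setd1a, so its difference did not stand apart from those of other genes. Markers of embryonic stem cells were all present, with 6 of 6 between 79.5 and 745 RPKM with control siRNA and between 83.7 and 740.5 with Set1a siRNA. Of 8 fibroblast markers, 5 were below 0.5 RPKM in both libraries, Col1a2 and Postn among them at 0. Their summed level was 11.0 RPKM with control siRNA and 11.4 with Set1a siRNA, most of it from Acta2 at 7.85 and 5.77. The other markers with reads were mostly higher with Set1a siRNA: Thy1 had 2.42 and 3.86 RPKM, Pdgfrb 0.472 and 1.12, a ratio of 2.38 (1.31 to 4.48), and Col1a1 2 and 11 reads, a ratio of 5.70 (1.24 to 52.9). The part of such cells in the results below was not tested. In bulk RNA, a change in the number of cells of a type and a change in RNA per cell cannot be told apart.

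The template of telomerase is a short run in Terc, shown because it is what TERT copies. The deposited Terc values gave whole reads at a length of 397 bases, so the counted transcript may not hold all letters shown. Capitals mark the template letters. The stretch covers bases 8 to 56 of the 423 bases of the GENCODE M21 transcript, 5′ to 3′, written with T.
Terc: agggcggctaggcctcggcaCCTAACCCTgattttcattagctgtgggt
The 250 bases before the annotated start of Pot1a, Tert, Rtel1 and Acd are shown because these 4 genes had the largest differences among the 10. They are RefSeq sequences of build GRCm38.p6, 5′ to 3′ on the strand of the gene. They lie at chr6:25809219-25809468, minus strand, for Pot1a, at chr13:73626661-73626910, plus strand, for Tert, at chr2:181319474-181319723, plus strand, for Rtel1, and at chr8:105701229-105701478, minus strand, for Acd. Capitals mark GC boxes (GGGCGG on either strand).
Pot1a: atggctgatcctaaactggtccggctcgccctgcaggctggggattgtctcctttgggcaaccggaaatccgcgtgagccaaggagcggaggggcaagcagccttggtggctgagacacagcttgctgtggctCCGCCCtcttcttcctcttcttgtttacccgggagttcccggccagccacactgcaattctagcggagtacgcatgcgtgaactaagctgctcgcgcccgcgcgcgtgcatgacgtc
Tert: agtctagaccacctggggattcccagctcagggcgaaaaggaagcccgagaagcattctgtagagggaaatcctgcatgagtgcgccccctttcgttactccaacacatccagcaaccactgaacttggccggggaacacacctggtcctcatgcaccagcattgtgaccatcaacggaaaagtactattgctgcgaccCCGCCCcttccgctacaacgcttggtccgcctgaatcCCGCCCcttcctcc
Rtel1: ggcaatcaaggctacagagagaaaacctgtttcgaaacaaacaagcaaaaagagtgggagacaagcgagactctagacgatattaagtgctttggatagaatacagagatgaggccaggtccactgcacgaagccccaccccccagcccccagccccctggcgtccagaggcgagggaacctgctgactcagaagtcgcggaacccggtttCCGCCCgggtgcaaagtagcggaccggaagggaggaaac
Acd: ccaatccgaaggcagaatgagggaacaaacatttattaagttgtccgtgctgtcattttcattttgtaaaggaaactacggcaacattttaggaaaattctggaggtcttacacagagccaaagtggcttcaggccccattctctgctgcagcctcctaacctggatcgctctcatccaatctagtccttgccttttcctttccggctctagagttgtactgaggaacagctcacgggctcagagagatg

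The 10 genes spanned a wide range of levels in the control siRNA library. Dkc1, at 68.0 RPKM, and Terf1, at 61.0, were the highest, and their counting intervals, 64.3 to 71.9 and 56.4 to 65.8, overlapped. Rtel1, which encodes a helicase that unwinds telomeric loops during replication, followed at 29.9 RPKM and stood apart from its neighbours on both sides. Tinf2, at 15.4 RPKM, and Pot1a, at 12.01, overlapped each other. From Acd, at 7.70 RPKM, through Terf2 at 6.49, Tert at 4.65, Terf2ip at 4.51 and Pot1b at 3.82, each gene overlapped the next. The highest level was 17.8 times the lowest with control siRNA and 21.3 times with Set1a siRNA. With Set1a siRNA the order was the same except that Acd stood above Pot1a and Terf2ip above Tert, and the intervals of both pairs overlapped in that library. These levels are per length of transcript, and all 10 genes had a mean over 1 RPKM, the floor used here, so none was left out.

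**Figure D1:**
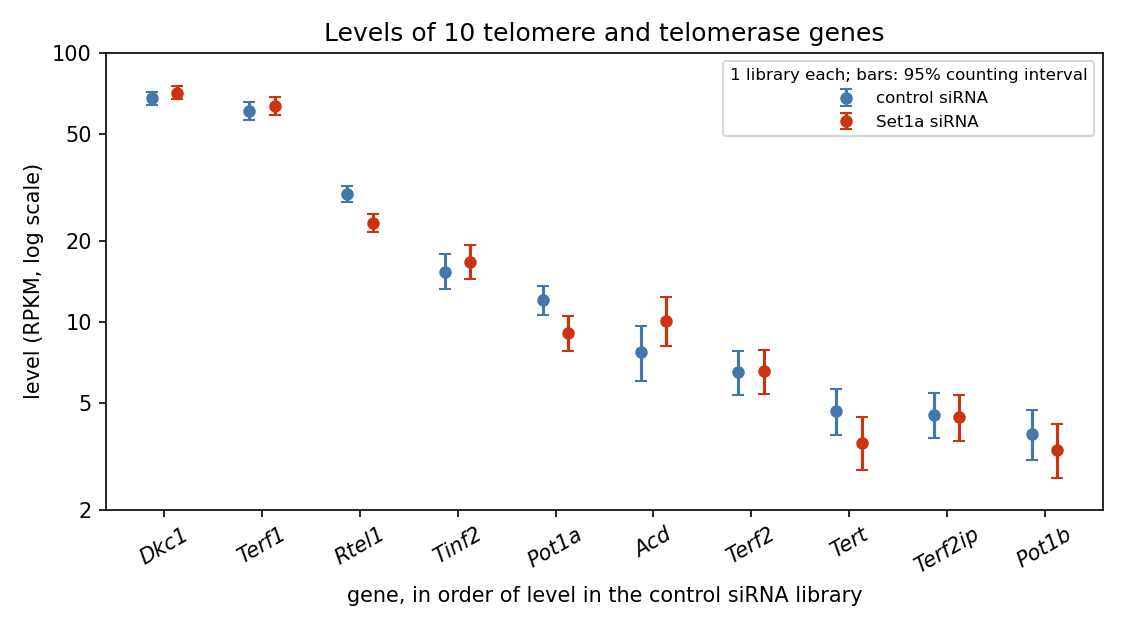
Level of each of the 10 genes in RPKM (log axis) in the control siRNA library (blue) and the Set1a siRNA library (red), 1 library each, with 95% counting intervals as bars. The order of levels is nearly the same in both libraries, with Dkc1 and Terf1 at the top, while Acd changes places with Pot1a and Terf2ip with Tert.

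Across the 10 genes the libraries were close. With 1 RPKM added to each value, 0 genes were higher by 2-fold or more with Set1a siRNA and 0 lower by as much. Among all 11789 genes whose mean reached 1 RPKM, 0.772% were higher by 2-fold or more and 0.407% lower, so counts of 0 among 10 are near the background. Of the 10, 5 were higher and 5 lower. Their median log2 fold was -0.0066, beside 0.0065 for all genes. The counting interval of the ratio excluded 1 for 2 of the 10 genes, both lower. It lay below 1 for 10.6% and above 1 for 11.5% of all genes, and it excluded 1 in either direction for 22.1%. At the read numbers used here, the share among the 10 is therefore near that of genes at large. It is also near the 23.7% of the 7424 genes with as many reads as these 10, from 164 to 2550 over both libraries.

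**Figure D2:**
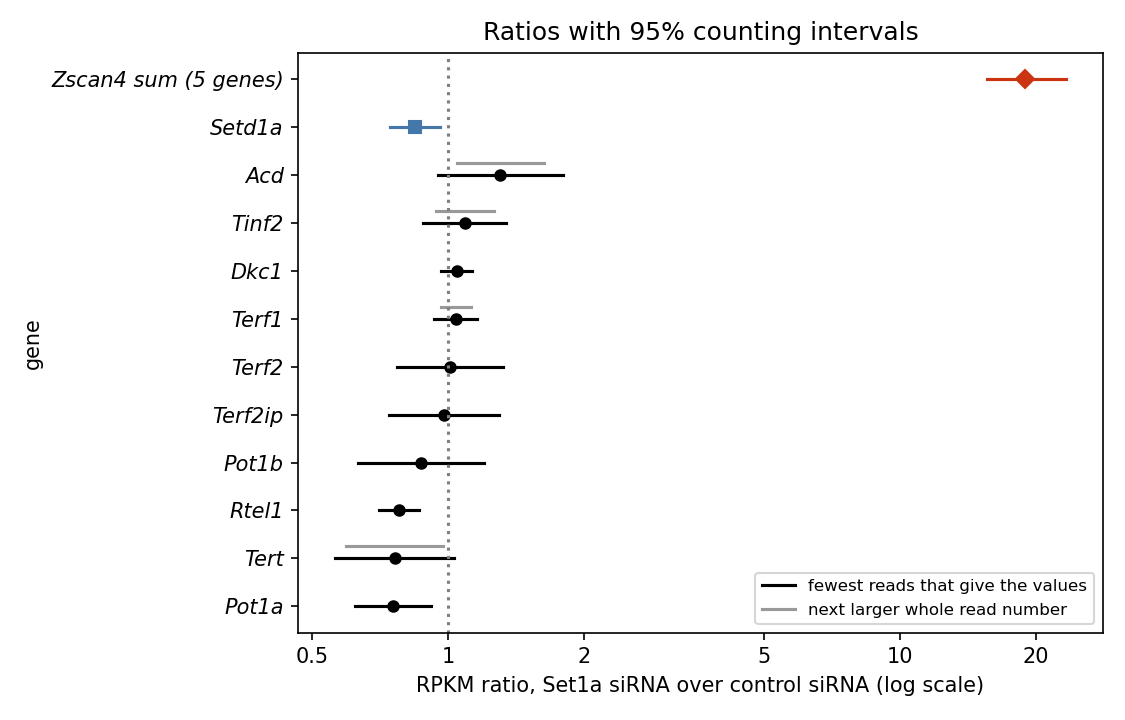
RPKM ratio of the Set1a siRNA library over the control siRNA library (log axis) for the 10 genes, for Setd1a and for the Zscan4 genes in sum, with 95% counting intervals. Grey bars show the interval at the next larger read number for the 4 genes whose values several whole read numbers give; the intervals of Pot1a and Rtel1 lie below 1, and the Zscan4 sum, at 19.0, lies far to the right.

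Telomerase itself was represented by its catalytic subunit, its RNA and the proteins that bind that RNA. Tert was at 4.65 RPKM with control siRNA and 3.55 with Set1a siRNA, a ratio of 0.763. Its values correspond to 106 and 78 reads or equally to 159 and 117 or 212 and 156, because the transcript length the authors used is not known. The interval was 0.562 to 1.03 with 106 and 78 reads, which includes 1. It was 0.596 to 0.975 with 159 and 117 reads, which does not. With the read number open and 1 library per group, whether Tert was lower is not settled. Of the 11789 genes whose mean reached 1 RPKM, 8.56% had a lower log2 fold than Tert. Terc had 3 reads with control siRNA and 1 with Set1a siRNA, with an interval of the ratio from 0.0066 to 4.30, and no difference was detectable at this depth. Whether RNAs without a poly(A) tail, of which Terc is an example, were kept in the libraries is not given in the sources used here.

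Dkc1 was at 68.0 and 71.2 RPKM, from 1269 and 1281 reads, a ratio of 1.05 (0.967 to 1.13). At the read numbers used here, no other of the 10 genes had as many reads. Of the 16 genes on a list of the telomerase particle and its assembly, Tert and Dkc1 included, 15 were above the floor, 6 higher and 9 lower, 0 of them by 2-fold, with a median log2 fold of -0.03. The interval lay above 1 for Ruvbl1, an ATPase that takes part in assembling the particle, which had 35.0 and 40.8 RPKM and a ratio of 1.17 (1.01 to 1.34). It lay below 1 for Nop10, a small protein of the same H/ACA core as dyskerin, which had 140.3 and 123 RPKM and a ratio of 0.880 (0.784 to 0.987). The other core proteins were close to 1, with 0.999 for Nhp2 and 0.966 for Gar1, and each of these intervals included 1.

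Among the shelterin genes, those for proteins at double-stranded repeats differed by less than counting error. Terf1 had levels of 61.0 and 63.5 RPKM and a ratio of 1.04 (0.934 to 1.16). Its read number is open: that interval rests on 663 and 666 reads, and 1326 and 1332 reads gave 0.964 to 1.12. Terf2 had levels of 6.49 and 6.55 RPKM and a ratio of 1.01 (0.771 to 1.32). Its other listed transcript, at 5.54 and 6.06 RPKM, had a ratio of 1.09 (0.812 to 1.47), and transcripts of 1 gene can share reads. Terf1 was at 9.41 times the level of Terf2 with control siRNA and at 9.70 times with Set1a siRNA. Terf2ip, which encodes the RAP1 protein that TERF2 holds at telomeres, had levels of 4.51 and 4.41 RPKM and a ratio of 0.979 (0.739 to 1.30). Its exons share 108 annotated bases with Gm6793 on the opposite strand, a gene at 811 and 827 RPKM, and without a known use of strand reads there cannot be told apart. With 102 to 115 reads in each library, differences inside these wide intervals could not be detected for Terf2 and Terf2ip.

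The genes around the single-stranded overhang differed more from each other. Pot1a was at 12.01 RPKM with control siRNA and 9.09 with Set1a siRNA, from 252 and 184 reads. The ratio was 0.757 (0.622 to 0.919), the lowest of the 10, and 4.29% of the 7918 better expressed genes had a lower log2 fold. Pot1b, the other mouse POT1 gene, had levels of 3.82 and 3.34 RPKM and a ratio of 0.873 (0.634 to 1.20), and its interval included both 1 and the ratio of Pot1a. Whether the paralogs differed in response is not shown by these values. Pot1a stood at 3.14 times Pot1b with control siRNA and at 2.72 times with Set1a siRNA.

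Acd, which encodes TPP1, the partner that brings POT1 into shelterin and recruits telomerase, went the other way. It had levels of 7.70 and 10.1 RPKM and a ratio of 1.31, the highest of the 10, and 94.5% of the 7918 better expressed genes had a lower log2 fold. As for Tert, the read number is open. With 73 and 92 reads the interval was 0.9504 to 1.80, which includes 1. It lay above 1 with 146 and 184 reads, at 1.05 to 1.63, and with 219 and 276 reads, at 1.09 to 1.57. At each of these read numbers the interval of Acd did not overlap that of Pot1a. The level of Acd was 0.641 times that of Pot1a with control siRNA and 1.11 times with Set1a siRNA. Their order changed, but the intervals of their levels overlapped with Set1a siRNA, so the order in that library is not settled. In the GENCODE M21 annotation, 1208 bases of Acd exons overlap exons of Carmil2 on the opposite strand. As no use of strand in counting is stated, reads of such a partner cannot be told from those of Acd.

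Tinf2, the hub that binds TERF1, TERF2 and TPP1, had levels of 15.4 and 16.8 RPKM and a ratio of 1.09. Its interval was 0.882 to 1.34 with 178 and 187 reads and 0.939 to 1.26 with 356 and 374, and included 1 with both. It shares 1540 annotated exon bases with Gmpr2 on the opposite strand, a gene at 6.71 and 7.36 RPKM. Of the 7 shelterin genes, 4 were higher and 3 lower, with a median log2 fold of 0.01, and the interval excluded 1 for Pot1a.

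Rtel1 rested on more reads than Pot1a, the other gene of the 10 whose interval excluded 1. It was at 29.9 RPKM with control siRNA and 23.3 with Set1a siRNA, from 883 and 663 reads, a ratio of 0.778 (0.703 to 0.862). The 6 listed Rtel1 transcripts had control levels from 29.5 to 30.3 RPKM and ratios from 0.778 to 0.788. Transcripts of 1 gene can share reads, so these are not separate measurements. Of the 7918 genes whose mean reached 5 RPKM, 4.99% had a lower log2 fold than Rtel1.

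**Figure D3:**
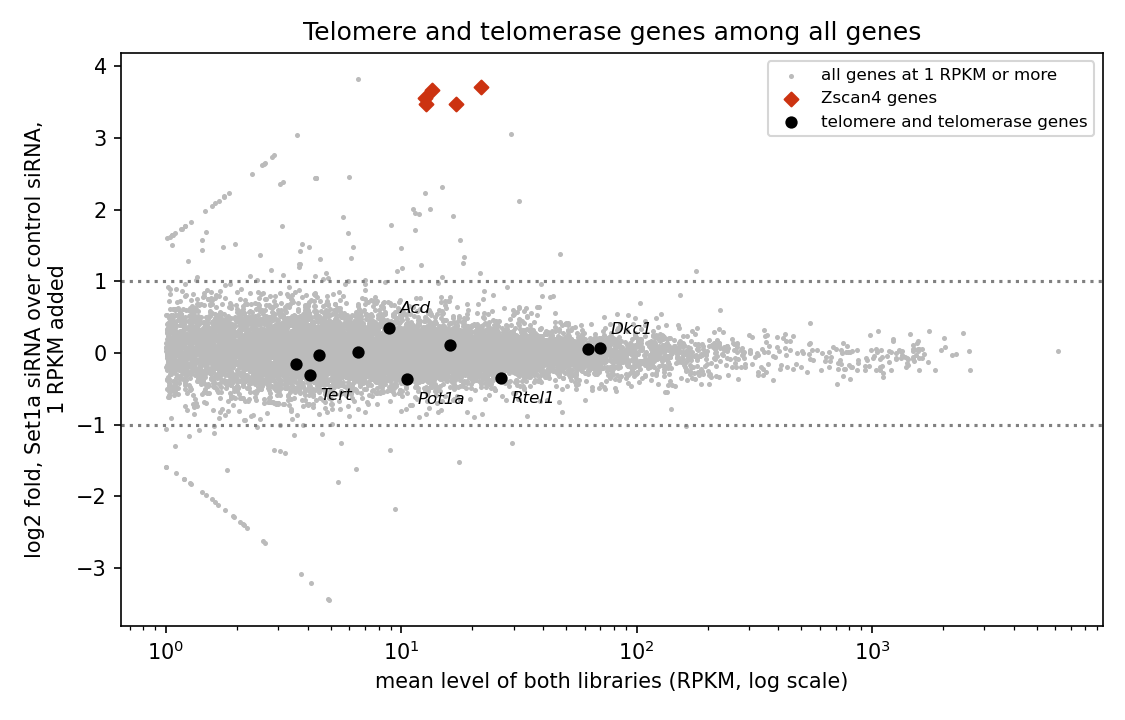
Log2 fold with 1 RPKM added against the mean level of both libraries (log axis) for 11789 genes (grey), the 10 telomere and telomerase genes (black) and the Zscan4 genes (red diamonds). The 10 genes lie within the cloud and inside the dotted 2-fold lines, while the Zscan4 genes lie above 3.

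The Zscan4 genes, read beside them, were on another scale. The 5 listed Zscan4 genes were between 1.11 and 2.22 RPKM with control siRNA and between 24.2 and 41.2 with Set1a siRNA. Summed, 104 reads stood against 1905, a ratio of 19.0 (15.6 to 23.4), and 5 of 5 genes passed 2-fold. Copies of this family are near-identical, so a read may be counted at more than 1 gene, which would make the interval too narrow. Of 4 other genes listed for that state, Rif1, Tbx3, Tcstv1 and Tcstv3, only Rif1 and Tbx3 had reads. Rif1, a telomere-associated protein gene that restrains Zscan4, had levels of 56.5 and 56.1 RPKM and a ratio of 0.993 (0.945 to 1.04). Tbx3, a T-box factor gene linked to Zscan4 expression, had a ratio of 1.06 (0.980 to 1.14). Tcstv1 and Tcstv3, listed at 0 in both libraries, gave no ratio. As the treatment of reads with several matches is not given, a listed 0 does not show that their RNA was absent. Thus a 19.0-fold higher Zscan4 signal accompanied ratios between 0.757 and 1.31 for the 10 genes.

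The wider set of telomere genes was described with 6 lists, which without the 10 genes hold 78 names. Of these, 77 had a listed transcript and 72 were above the floor, of which 30 were higher and 42 lower. By at least 2-fold, 0 were higher and 0 lower, beside 0.772% and 0.407% of all genes. The interval lay above 1 for 9 of the 72 and below 1 for 11, beside 11.5% and 10.6% of all genes. Their median log2 fold was -0.03, against 0.0065 for all genes.

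In the list of the CST complex, its primase partners and end-processing nucleases, 12 of 12 genes were above the floor, 4 higher and 8 lower, with a median log2 fold of -0.07. The interval lay above 1 for Ctc1, the large CST subunit, with a ratio of 1.18 (1.03 to 1.34), for the nuclease gene Exo1 with 1.36 (1.16 to 1.59) and for Mre11a with 1.21 (1.01 to 1.46). It lay below 1 for Pola1, the catalytic subunit of DNA polymerase alpha, with 0.821 (0.746 to 0.904), for Pola2 with 0.889 (0.797 to 0.992) and for Rad50 with 0.746 (0.630 to 0.881). Mre11a and Rad50 encode partners of the same MRN complex, and their intervals did not overlap, while Nbn, the other member, was at 9.53 and 9.003 RPKM. Thus 3 of the 12 intervals lay above 1 and 3 below, beside 11.5% and 10.6% of all genes, and with 1 library per group counting intervals leave out the variation between cultures.

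Among 10 helicase and nuclease genes of telomere replication, Rtel1 included, 3 were higher and 7 lower, with a median of -0.02. Dna2, a nuclease and helicase gene, had levels of 5.87 and 8.80 RPKM and a ratio of 1.5001 (1.22 to 1.85), and was the gene other than Rtel1 whose interval excluded 1. Among 11 shelterin regulators and other telomere binding proteins above the floor, 5 were higher and 6 lower. Hmbox1, whose product binds the TTAGGG repeat directly, had levels of 6.72 and 4.36 RPKM and a ratio of 0.649 (0.486 to 0.862). Tnks1bp1, encoding a tankyrase-binding protein, had a ratio of 0.831 (0.695 to 0.994), and the tankyrase genes had 0.918 for Tnks and 1.03 for Tnks2, with intervals that included 1.

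Of 22 genes of telomeric chromatin and recombination, 9 were higher and 13 lower, with a median log2 fold of -0.06. The SUMO ligase gene Nsmce2 had levels of 29.0 and 20.4 RPKM and a ratio of 0.704 (0.568 to 0.870). The interval also lay below 1 for Cbx5, encoding HP1 alpha, with a ratio of 0.878, for the histone H3.3 gene H3f3a with 0.900 (a gene with near-identical copies, so uncertain) and for Dnmt1 with 0.902. It lay above 1 for Kmt5c, a histone H4 methyltransferase gene, with 1.19 (1.03 to 1.38), and for Pml, the scaffold of PML bodies, with 1.19 (1.07 to 1.33). It also lay above 1 for H3f3b, the other gene for histone H3.3, named here after its values were seen. H3f3b had 204 and 224 RPKM and a ratio of 1.10 (1.04 to 1.16). The listed ratios of the H3.3 genes thus lay on opposite sides of 1, but with H3f3a uncertain an opposite response is not shown. A list of meiotic genes held 8 with a listed transcript, most of them for attaching telomeres to the nuclear envelope, together with the recombination genes Spo11 and Dmc1. Of these 8, 5 were above the floor, 4 higher, Dmc1 among them, and 1 lower, with a median log2 fold of 0.09. Majin had 31 and 15 reads, a ratio of 0.502 (0.252 to 0.957), and Sun1 had a ratio of 1.12 (1.03 to 1.22).

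**Figure D4:**
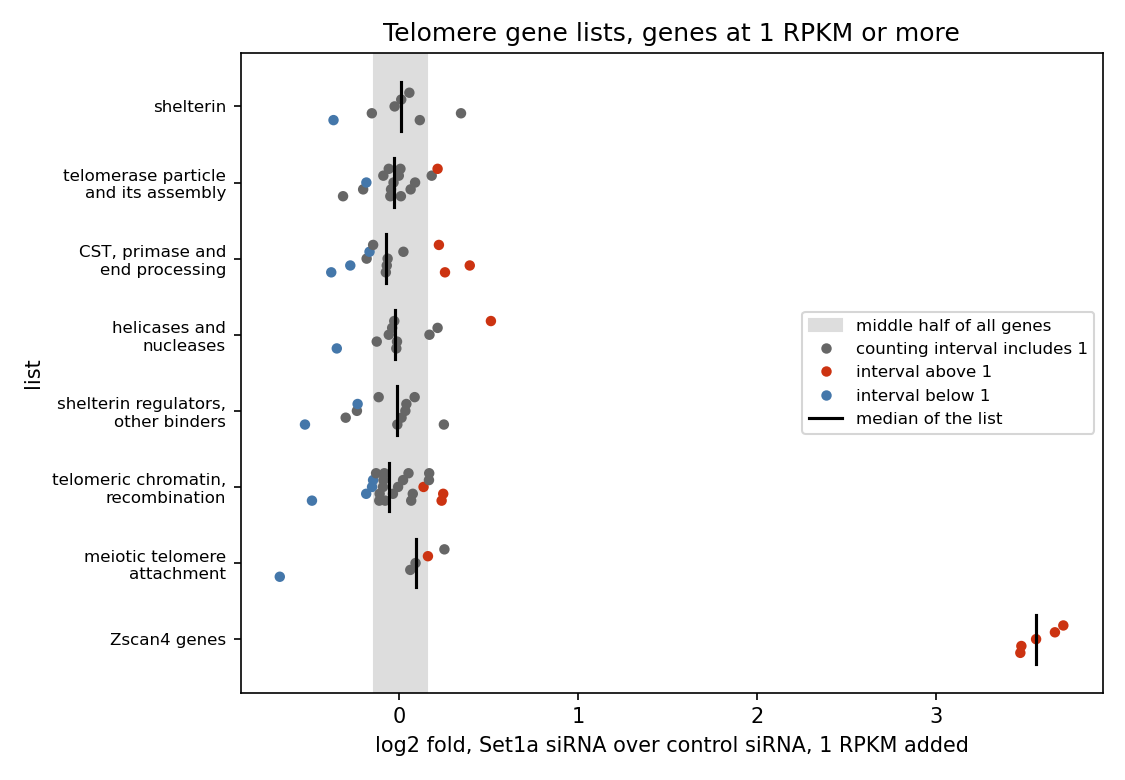
Log2 fold of each gene above 1 RPKM in the telomere gene lists and in the Zscan4 family, with the list median as a black line and the middle 50% of all genes as a grey band. Medians of the 7 telomere lists lie between -0.07 and 0.09, inside the band, and that of the Zscan4 genes is 3.56.

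The promoter windows printed above were compared over 9 of the 10 genes; Terf1 had no entry in the RefSeq table. The SET1 complexes are known to be drawn to CpG-rich promoters through a CpG-binding subunit, so CpG letters were counted in the 250 bases before the start. Tinf2 had 20, Pot1a 19, Rtel1 13, Tert 12, Terf2 11, Terf2ip and Pot1b 9 each, Acd 6 and Dkc1 5. The median of these 9 was 11, beside 6 over 32536 such windows of the genome, which were not limited to expressed genes. GC boxes, searched as GGGCGG on both strands, stood in 4 of the 9 windows, in Tert at 51 and 14 bases before the start, in Pot1a at 117, in Rtel1 at 39 and in Pot1b at 8, and in 33.0% of all windows. These are the 4 genes with the lowest ratios of the 9, an order noticed after the values were seen. The intervals of Tert, at its fewest reads, and of Pot1b included 1, and a link between GC boxes and ratios was not tested. CCAAT boxes (CCAAT on both strands) stood in 3 of 9 windows, Acd, Terf2 and Pot1b, and in 33.8% of all windows. The repeat unit TTAGGG stood in that of Pot1b and in 9.34% of all windows on either strand, and the E-box CACGTG in 0 of 9 and in 6.04%. Such matches are letters in a window and were not tested as sites.

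**Figure D5:**
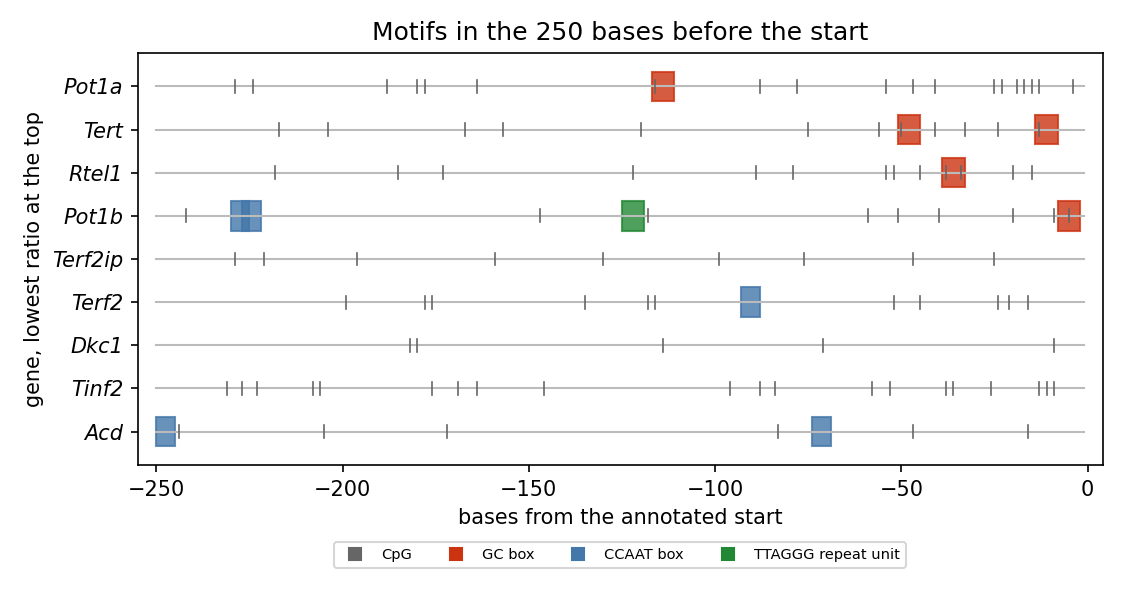
Positions of CpG (grey ticks), GC boxes (red), CCAAT boxes (blue) and the TTAGGG unit (green) in the 250 bases before the annotated start of 9 genes, ordered from the lowest ratio at the top. GC boxes stand in the upper 4 genes, Pot1a, Tert, Rtel1 and Pot1b, an order noticed after the values were seen and not tested.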

How the data were processed

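2 RNA-seq libraries were compared, grouped by the transfection label of each sample. The authors deposited 1 value per RefSeq transcript with no header; the unit, RPKM, was inferred from the deposited values, as value times length moves in whole steps. The submitters' processing notes name build mm9, SAMtools 0.1.16, TopHat2 2.0.12, TopHat and CASAVA. Which program counted, and how it treated strand and reads with several matches, is not given in the sources used here. Symbols came from a RefSeq table of GRCm38.p6 and from GENCODE M21, for 27957 of 28430 transcripts (98.3%).

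Reads were recovered as the whole numbers that give both deposited RPKM values to the rounding of their 6 significant digits, which exist for 96.2% of the 21711 transcripts with reads and a reference length. Where several numbers did so, the one with a length within 5% of the reference was used, otherwise the fewest reads at or above the coding length; this leaves Tert, Terf1, Tinf2 and Acd with more than 1 possible number. Genes were represented by their transcript with the most reads. Folds are differences of log2(RPKM + 1), Set1a siRNA minus control siRNA, for genes with a mean from 1 RPKM up; adding 1 shrinks the folds of low genes. Ratios of RPKM carry exact Clopper-Pearson and levels exact Poisson 95% intervals, which cover counting error only. BLAST 2.17.0 found no other transcript that matched more than 33.1% of a member at 90% identity. The scripts were tested on simulated data in which the reference length was the true length. Read recovery where these lengths differ was not tested. All 10 genes are named, with Setd1a, Terc and, per list, up to 6 genes whose interval excludes 1 with the largest folds; Rif1, Tbx3, H3f3b, fibroblast markers and genes named for a complex they share were added. The members and lists were chosen with earlier results of these data known. Zscan4e was not analysed here. Python 3.11.15, numpy 2.4.6, pandas 2.3.3, scipy 1.17.1 and matplotlib 3.10.9 were used.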

Additional observations from a re-analysis of the deposited data

How the results depend on the processing

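Other pseudocounts (0.1 and 5), no floor or a floor of 5 RPKM, 2 other scalings (factors of 1.005 and 0.999), the transcript with the highest RPKM and a 1.5-fold rule left the numbers of the 10 genes past the fold rule at 0 in each direction. So did removal of a trend in GC content and length, chosen after seeing the data. Of the 10 genes, 9 kept the sign of their log2 fold in every setting in which they had a value. Terf2 was at -0.01 with that trend removed. A pseudocount or a floor cannot change a sign, and both scaling factors were near 1, so the kept signs say little about robustness. Pot1a ranged from -0.40 to -0.27, Rtel1 from -0.38 to -0.30, Tert from -0.38 to -0.18 and Acd from 0.25 to 0.38. Over all results and settings, 265 values were classed as close to the main one and 3 as moved. Among those classed as close was the number of the 10 genes with an interval below 1, which went from 2 to 3 in 1 setting. The Zscan4 median was 2.33 with a pseudocount of 5. A 1.5-fold rule called 1 gene of the meiotic list, Majin. Taking the reads of the length nearest to the reference was also chosen after seeing the data. It gave 1 gene, Acd, with an interval above 1 and 3, now with Tert, below 1, because more reads narrow the intervals. The share of all genes at this read choice is not given here, so these counts have no background to be read against. No paired analysis was possible because there is a single library per siRNA. Depth limits Terc, Majin and the genes near 100 reads most.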
